A study of Homo sapiens with 14 samples.

Results

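The MYC and MAX network genes were followed here at their promoters in HCT116 cells, a human colorectal carcinoma line, by chromatin immunoprecipitation and sequencing (ChIP-seq) of RNA polymerase II phosphorylated at Ser5 with the antibody 3E8. The network was taken as 10 genes by symbol, namely MYC, MYCL, MAX, MXD1, MXD3, MXD4, MXI1, MNT, MLX and MGA, and each had 1 window of 1000 bp among the 28159 in the table. All groups were wild-type HCT116 cells that had been electroporated, and they differed in peptide and drug. In order, the groups were 10 µM Nutlin3a with the bivalent stapled peptide (1 library), 0.1% DMSO with the peptide (1 library), 10 µM Nutlin3a with water (2 libraries) and 0.1% DMSO with water (2 libraries). The peptide was given at 10 µM in the electroporation and at a further 200 nM in the medium, and cells were fixed after 3 h. Per the labels' protocols, electroporated cells were split between the drug and its vehicle. Each of the 4 conditions also had 2 input libraries of sheared chromatin. Nutlin3a releases p53 from its ligase MDM2, and per the series title the peptide blocks the contact of p53 with Mediator. All data came from this 1 cell line, both peptide ChIP libraries carried replicate number 2, and no label says that replicates came from separate cultures. The p-values therefore speak for the spread among these libraries, which may be technical.

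MYC is a transcription factor of growth and ribosome production that binds DNA only as a dimer with MAX. MXD1, MXI1, MXD3, MXD4 and MNT compete for MAX and, as dimers with it, repress the same E-box sites through SIN3 corepressors, while MGA joins MAX to a polycomb complex. MLX pairs with the glucose sensors MLXIP and MLXIPL and with some of the antagonists, and colorectal tumours often carry high MYC through Wnt signalling.

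Some promoters of the network carry an E-box, the kind of sequence that its proteins bind. Among the 8 members with a RefSeq start site inside their window (GRCh38.p14 table, 250 bases before to 50 after the start), MLX, MNT and MXD4 held 1 canonical E-box each, CACGTG, which reads the same on both strands. In all, 7.2% of 34796 promoters of this length held one. These 3 promoters are shown 5′ to 3′ on the gene's strand because they contain that site, with its 6 bases as the only capitals.
MLX promoter, chr17:42566850-42567149, plus strand: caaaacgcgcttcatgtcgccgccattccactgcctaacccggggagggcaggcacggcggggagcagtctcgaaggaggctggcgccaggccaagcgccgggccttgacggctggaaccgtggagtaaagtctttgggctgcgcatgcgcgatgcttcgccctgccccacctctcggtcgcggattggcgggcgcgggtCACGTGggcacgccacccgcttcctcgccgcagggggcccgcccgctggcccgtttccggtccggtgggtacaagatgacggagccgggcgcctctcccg
MNT promoter, chr17:2401011-2401310, minus strand: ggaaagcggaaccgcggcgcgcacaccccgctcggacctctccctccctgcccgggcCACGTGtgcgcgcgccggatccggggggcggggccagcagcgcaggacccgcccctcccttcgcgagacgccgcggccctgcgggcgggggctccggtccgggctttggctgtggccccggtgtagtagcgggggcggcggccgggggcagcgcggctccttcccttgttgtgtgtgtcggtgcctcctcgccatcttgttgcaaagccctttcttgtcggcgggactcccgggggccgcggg
MXD4 promoter, chr4:2262060-2262359, minus strand: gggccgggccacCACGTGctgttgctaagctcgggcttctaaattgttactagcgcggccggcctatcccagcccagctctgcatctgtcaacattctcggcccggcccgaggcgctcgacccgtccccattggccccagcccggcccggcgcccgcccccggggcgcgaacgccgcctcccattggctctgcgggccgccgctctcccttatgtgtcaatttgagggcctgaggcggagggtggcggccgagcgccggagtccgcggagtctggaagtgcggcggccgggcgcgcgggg
The first base of the E-box lay at −50 from the start in MLX, −193 in MNT and −238 in MXD4. The GC box GGGCGG, searched on both strands, occurred 4 times in the MNT promoter, once each in MLX and MXD4, and in 44.9% of all promoters. MGA had 2 starts in its window, so the 8 members gave 9 promoters. None of the 9 held TATAAA on either strand (11.6% of all promoters did), and none matched the p53 half-site consensus (6.65%). The 3 promoters had 71.0% (MLX), 76.0% (MNT) and 72.3% (MXD4) G and C, above the median promoter at 58.7%. A match describes the letters and does not show binding.

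The windows did not sit alike on every gene. In hg38 the MYC window was chr8:127735931-127736930, which began 497 bp inside the annotated gene boundary. No other window in the table overlapped that of any member, so none of their counts was shared with another window. MLX (chr17:42566760-42567759) and MXD1 (chr2:69914741-69915740), on the plus strand, had 340 and 368 bp before the start and 659 and 631 bp after it. On the minus strand the order was turned, with 700 bp upstream and only 299 bp downstream of the start for MYCL (chr1:39901618-39902617), MXD4 (chr4:2261810-2262809) and MNT (chr17:2400761-2401760). MAX (chr14:65102245-65103244) had just 38 bp downstream of the 1 start that fell inside its window. The MXD3 window (chr5:177311599-177312598) lay inside the gene, 154 bp from its 5′ boundary. The windows of MXI1 (chr10:110225696-110226695) and MGA (chr15:41660112-41661111) sat at internal start sites, 18091 and 38888 bp inside the boundaries of those genes. Among genes with 1 promoter in the RefSeq table and its start inside the window, 89.4% of 6347 minus-strand genes had exactly 299 bases on the gene-body side, where 83.7% of 6701 plus-strand genes had 300 bases on the upstream side. Levels below are per window of equal length, but they do not cover the same part of each promoter.

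The ChIP libraries held 1290223 to 2240951 counts in windows and the inputs 161719 to 359276. Replicate 1 stood apart from replicate 2 on the first principal component (45.8% of the variance), with Nutlin3a replicate 1 at −34.4, DMSO replicate 1 at −12.6 and the 4 replicate 2 libraries at 7.47 to 15.5. CDKN1A, the p21 gene that p53 induces, averaged 303 ± 76.1 CPM with Nutlin3a and 116 ± 13.2 CPM with DMSO (SD, n = 2 each), where CPM is counts per 1000000 window counts after scaling by TMM (trimmed mean of M-values). Its window is shared in part with DINOL, and it was not called without peptide (log2 fold change 1.39, adjusted p = 0.109 by edgeR), whereas over both peptide states it was (1.70, adjusted p = 0.00456 by edgeR). Of 8 colon epithelial marker windows, 7 were above input, against 0 of 5 tested for blood, 0 of 5 for mesenchyme and 0 of 10 for silent tissue genes. The median unscaled level at silent tissue windows was 6.98 CPM in Nutlin3a replicate 1, and the remaining ChIP libraries had 2.97 to 5.91 CPM.

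MYC had by far the highest Ser5 polymerase signal of the network. It ranged from 379 to 589 CPM over the 6 ChIP libraries with a mean of 440 ± 77.5 CPM (SD, n = 6), and 0.243% of tested windows had a higher average. The MLX window, next in order, averaged 104 ± 19.7 CPM, and its range of 68.0 to 122 CPM did not reach that of MYC. MNT (74.8 ± 9.56 CPM) and MXD3 (72.7 ± 6.57 CPM) followed, with ranges that overlapped each other, and the MNT range overlapped that of MLX. MAX (46.7 ± 5.04 CPM) and MGA (45.8 ± 7.19 CPM) lay below the lowest MXD3 library and could not be told from each other. MXD1 (34.8 ± 6.45 CPM), MXD4 (30.6 ± 7.33 CPM), MXI1 (24.9 ± 3.83 CPM) and MYCL (24.0 ± 4.17 CPM) came last, each overlapping the next. These SDs span 4 treatments and so hold any treatment effect. Even MYCL, a paralog of MYC first found amplified in lung cancer, stayed at 17.5 to 30.0 CPM, above the medians of silent tissue windows.

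**Figure D1:**
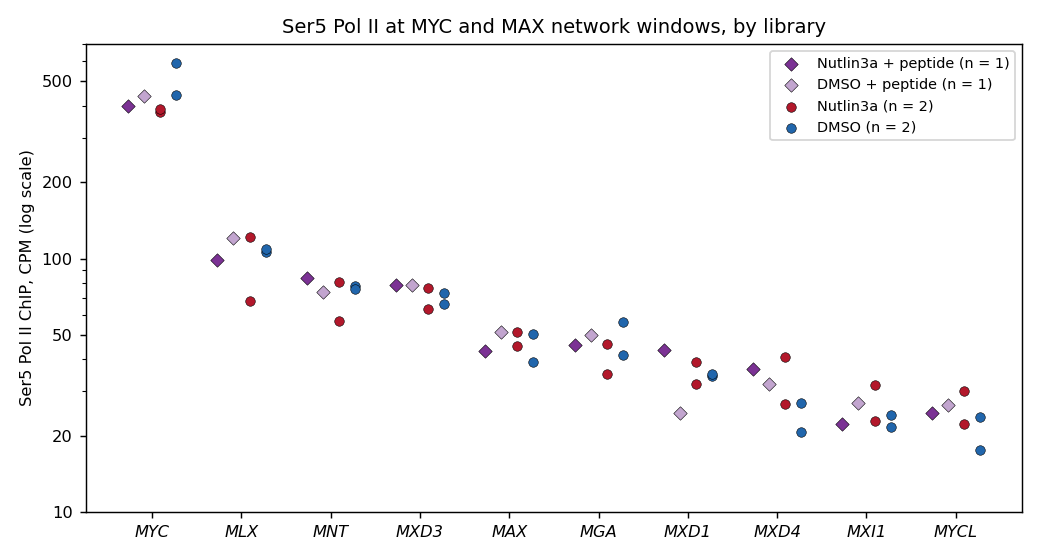
Ser5 polymerase ChIP signal in CPM (log axis) at the 10 network windows, 1 point per library, for Nutlin3a with peptide, DMSO with peptide, Nutlin3a and DMSO. MYC lies at 379 to 589 CPM, and each of the other 9 windows stays at or below 122 CPM.

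Against input, which shows how readily each window is recovered without the antibody, MYC and MLX stood out. On the log2 scale, the comparison was the mean of the 4 ChIP groups minus the mean of the 4 input groups. It came from 1 edgeR quasi-likelihood fit of all 14 libraries, with Benjamini-Hochberg adjustment over 21504 windows. Each library was scaled to its own windows, so the ratio ranks windows and is not an absolute enrichment. On this joint scale the MYC window had 436 CPM in the lowest ChIP library, 481 CPM at the median and 678 CPM in the highest, against 9.41, 53.6 and 73.9 CPM in the inputs. No input reached the lowest MYC ChIP value, and the fitted log2 ratio was 3.29 ± 0.25 (SE), or 9.77-fold (95% interval 6.84 to 14.0, adjusted p = 3.84e-11 by edgeR). The MLX window had 78.2, 124 and 139 CPM in ChIP libraries and 13.4, 41.2 and 100.4 CPM in inputs at the lowest, the median and the highest. These ranges overlapped, and the log2 ratio was 1.62 ± 0.26, or 3.07-fold (adjusted p = 1.73e-05 by edgeR). The plain ratio of mean ChIP CPM to mean input CPM was lower at MLX, 2.44, and was 9.97 at MYC. The MLX inputs differed widely by group. They had 14.1 and 13.4 CPM with DMSO (4 and 3 reads), but 100.4 and 85.8 CPM with DMSO and peptide (32 reads each). The Nutlin3a inputs, with and without peptide, lay between. The fitted ratio weighs each input group alike, also the group with the fewest reads. Among windows with a mean count of at least 50, where fewer windows set the scale, MLX was at 0.67 (edgeR adjusted p = 0.0655).

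The other 8 network windows were not called against input. The 2 members called higher compare with 25.1% of all tested windows called higher, and 0 members were called lower, against 15.5%. At an unadjusted p under 0.05 the same 2 members were higher, against 28.8% of windows, and MYCL was the only one lower, against 21.7%. At MAX the ChIP libraries had 45.1, 54.7 and 58.9 CPM at the lowest, the median and the highest, against 23.6, 50.6 and 84.5 CPM in inputs, a log2 ratio of 0.17 ± 0.25. The antagonists MXD3 (0.40 ± 0.22), MNT (0.39 ± 0.24) and MXD1 (0.25 ± 0.32) were on the positive side, and MGA stood at −0.02 ± 0.25. MXI1 (−0.40 ± 0.37), MXD4 (−0.45 ± 0.31) and MYCL (−0.73 ± 0.31) were on the negative side. MYCL was not called lower (adjusted p = 0.0577 by edgeR), but it was with total window counts (−1.02, adjusted p = 0.00997 by edgeR), with size factors of the DESeq2 kind (−0.92), with DESeq2 itself (−0.92), without DMSO input replicate 2 (−0.77) and without DMSO peptide input replicate 2 (−0.93). MXD4 was called lower in 1 alternative, without DMSO input replicate 1 (−0.68, adjusted p = 0.0485 by edgeR). All 10 values lay above the median of the silent tissue windows, which was −1.35. Input counts were low, with 66 to 138 reads per member over the 8 inputs together, and this limits these ratios.

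**Figure D2:**
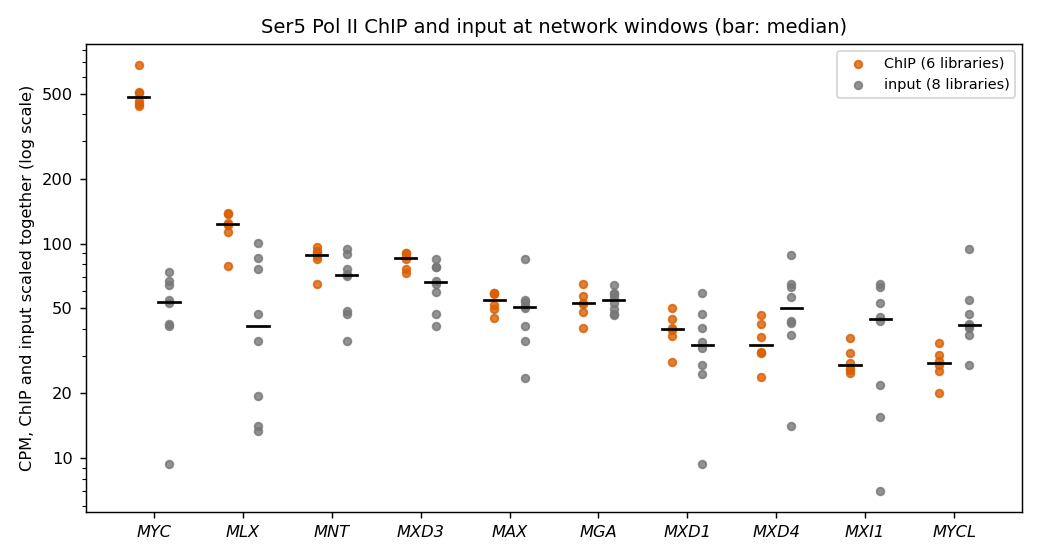
Signal in CPM (log axis, ChIP and input scaled together) at each network window in the 6 ChIP libraries and the 8 inputs, with bars at the medians. At MYC the ChIP points lie wholly above the inputs, and at the other 9 windows the ranges overlap.

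Nutlin3a against DMSO without peptide asked whether stabilised p53 changes Ser5 polymerase at these promoters. MYC had 379 and 390.5 CPM in the Nutlin3a libraries (replicates 1 and 2), against 442 and 589 CPM in the DMSO libraries. The Nutlin3a values were close together and lay below both DMSO values, which differed from each other by more. With peptide the order was the same, at 399.6 CPM with Nutlin3a and 439 CPM with DMSO, so all 3 Nutlin3a libraries lay below all 3 DMSO libraries. MYC was the only member of the 10 whose 3 libraries per treatment did not overlap, a pattern that 4.82% of all tested windows showed in the lower direction and 4.76% in the higher. Counting both directions, 1 member of 10 is close to the share of all tested windows with this pattern. For MYC, non-overlapping pairs without peptide and 1 sign in all 3 library pairs follow from it and add nothing further. No other member showed either (15.7% of windows lower and 16.1% higher for the pairs, 13.2% lower and 14.6% higher for the sign). The fitted log2 fold change of MYC was −0.42 ± 0.24 (SE, n = 2 per group), or 0.747-fold with a 95% interval of 0.528 to 1.06. It did not pass the test (edgeR quasi-likelihood, adjusted p = 0.982 over 25901 windows, unadjusted p = 0.0934). The value was −0.61 without DMSO replicate 1 and −0.19 without DMSO replicate 2, and over both peptide states it was −0.28 ± 0.20. With the authors' scaling constants the sign turned to 0.11, where the median of all windows moved from 0.04 to 0.53, so that MYC still lay below it.

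None of the 10 members passed this test in either direction, against 0.00772% of windows called higher and 0% called lower. Their median log2 fold change was 0.03, with 6 positive and 4 negative, and that of all tested windows was 0.04, with 54.1% positive. At an unadjusted p under 0.05 there were also 0 members, where 1.27% of windows were higher and 1.05% lower. DESeq2 called 8 windows higher and limma-voom 4, none of them a member. With the authors' constants all 10 members were positive with a median of 0.48, where 94.9% of all tested windows were positive and their median was 0.53. The number of positive members was 8 without Nutlin3a replicate 1 and 4 without Nutlin3a replicate 2.

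The dimer partners gave no common direction. MAX had 51.2 and 45.0 CPM with Nutlin3a, against 50.1 and 39.2 CPM with DMSO, and the groups overlapped (log2 fold change 0.10 ± 0.26). MLX had 68.0 and 122 CPM with Nutlin3a, against 106 and 109 CPM with DMSO. One Nutlin3a library thus lay below and the other above both DMSO libraries, and the change of −0.17 ± 0.25 became 0.18 without Nutlin3a replicate 1. MGA, the large scaffold that joins MAX to polycomb proteins, had 35.2 and 46.2 CPM with Nutlin3a, against 56.4 and 41.7 CPM with DMSO (−0.26 ± 0.28). MYCL had 22.2 and 30.0 CPM with Nutlin3a, against 23.6 and 17.5 CPM with DMSO (0.35 ± 0.36). Each of these pairs overlapped.

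Among the antagonists MXD4 had the highest fold change. It had 26.8 and 40.8 CPM with Nutlin3a, against 27.0 and 20.6 CPM with DMSO. The Nutlin3a library of replicate 2 lay above the rest and that of replicate 1 between the DMSO values, and the log2 fold change was 0.51 ± 0.33 (95% interval −0.19 to 1.21, edgeR adjusted p = 0.982). It was 0.18 without Nutlin3a replicate 2 and 0.77 without Nutlin3a replicate 1. MXI1 had 22.9 and 31.8 CPM with Nutlin3a, against 24.1 and 21.6 CPM with DMSO (0.27 ± 0.35). MXD1 had 32.1 and 39.0 CPM with Nutlin3a, against 34.2 and 35.05 CPM with DMSO (0.04 ± 0.29), and MXD3 had 63.5 and 76.2 CPM, against 73.3 and 66.0 CPM (0.01 ± 0.22). MNT, the most widely expressed antagonist, had 56.6 and 81.0 CPM with Nutlin3a, against 78.1 and 75.8 CPM with DMSO (−0.15 ± 0.23). At MXD1, MXD3 and MNT the Nutlin3a library of replicate 1 lay below both DMSO libraries and that of replicate 2 above both, and at MXI1 replicate 1 lay between them.

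The sign of the Nutlin3a difference varied with the replicate number at most members. Within replicate 1, 9 of 10 members had a lower CPM with Nutlin3a than with DMSO, with a median log2 ratio of −0.15, where 54.1% of all windows were positive and their median was 0.06. Within replicate 2, 9 of 10 members were higher, with a median of 0.18, where 50.7% of all windows were positive and the median was 0.01. MAX was the 1 member positive in both, at 0.03 and 0.19, and MYC the 1 member negative in both, at −0.22 and −0.59. The widest splits were those of MXD4 (−0.01 in replicate 1 and 0.95 in replicate 2), MYCL (−0.09 and 0.74), MGA (−0.67 and 0.14) and MLX (−0.63 and 0.16). Nutlin3a replicate 1 had the fewest counts of the ChIP libraries and the highest silent-window level, and the part of either in this split was not tested.

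**Figure D3:**
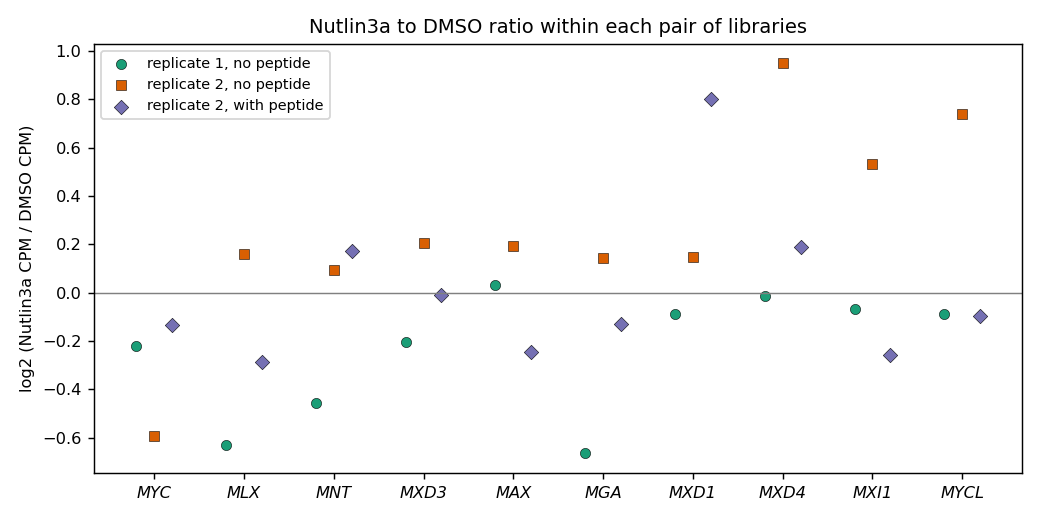
The log2 ratio of Nutlin3a to DMSO CPM within each pair of libraries at the 10 network windows. MYC is negative in all 3 pairs, whereas 9 of 10 members are negative in replicate 1 and 9 of 10 are positive in replicate 2 without peptide.

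With peptide, Nutlin3a against DMSO compares 1 library with 1 library and was not tested on its own. Here 3 of 10 members were higher with Nutlin3a and the median log2 ratio was −0.11, where 49.2% of all windows were positive. MXD1, an antagonist induced when cells differentiate, had 98 reads (43.7 CPM) with Nutlin3a and 44 reads (24.6 CPM) with DMSO, both with peptide. That was 1.77-fold, with a 95% exact binomial interval of 1.23 to 2.59 that covers counting error only. Its DMSO library with peptide was the lowest of the 6 for MXD1, and the remaining 5 ranged from 32.1 to 43.7 CPM. MLX had 221 reads with Nutlin3a and 215 with DMSO, or 0.819-fold (0.676 to 0.993) once scaled by library size. MYC had 896 reads with Nutlin3a and 784 with DMSO, or 0.910-fold (0.826 to 1.00). MXD4 stood at 1.15-fold (0.807 to 1.64). The intervals of MYC, MXD4 and the other 6 members contained equality. Such intervals were not computed for all windows, so the share of windows whose interval leaves out equality is not known. MXD1 and MLX are therefore not read as changed.

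Whether the Nutlin3a change itself depended on the peptide was tested as an interaction. No member passed the edgeR test of the difference over 25901 windows, where 0% of windows were called in either direction, and at an unadjusted p under 0.05 there were 0 members, against 0.413% of windows higher and 0.641% lower. DESeq2 and limma-voom called 0 windows too. The largest estimate was that of MXD1 at 0.78 (log2, 95% interval −0.28 to 1.85), or 1.72-fold. MYC was at 0.29, or 1.22-fold (95% interval 0.670 to 2.22), so a deeper and a smaller or opposite change with peptide both lay inside the interval. MXI1 (−0.53, interval −1.79 to 0.72), MYCL (−0.45, −1.74 to 0.84), MAX (−0.35, −1.30 to 0.59) and MXD4 (−0.32, −1.50 to 0.87) were negative. MNT (0.33) and MGA (0.13) were positive, and MLX (−0.12) and MXD3 (−0.02) close to 0. These intervals are wide, and a p above the threshold does not show that the responses were alike.

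**Figure D4:**
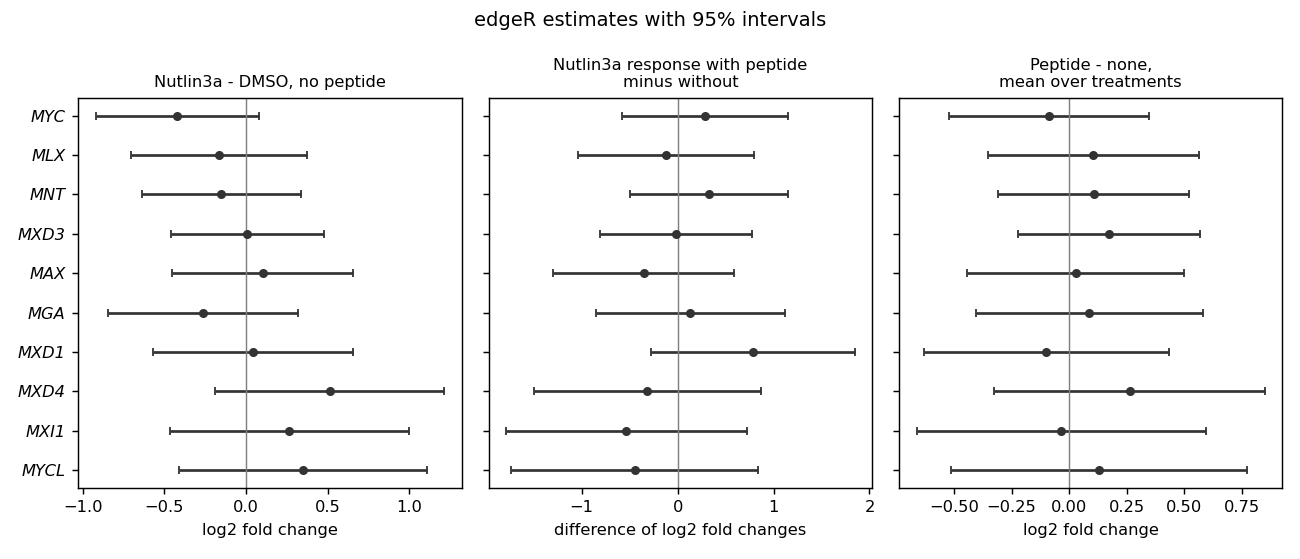
The edgeR estimates with 95% intervals for each network window, for Nutlin3a over DMSO without peptide, for the interaction of Nutlin3a with peptide, and for peptide over no peptide averaged over treatments. Every interval contains 0, from MYC at −0.42 in the first panel to MXD1 at 0.78 in the second.

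Peptide against no peptide, averaged over DMSO and Nutlin3a, asked for an effect of the peptide itself. None of the members passed the edgeR test (0% of windows called in either direction, and at an unadjusted p under 0.05 0 members, 0.718% of windows higher and 2.39% lower). DESeq2 and limma-voom called 0 windows. The members' median log2 change was 0.10, with 7 positive, beside −0.02 and 46.8% for all windows. MXD4 was highest at 0.26 ± 0.28 and MXD1 lowest at −0.10 ± 0.25, with MYC at −0.09 ± 0.20. The peptide libraries were both replicate 2, so the values within that replicate are given too. MYC had 439 CPM with peptide and 589 CPM without in DMSO, a log2 ratio of −0.42, but 399.6 CPM with and 390.5 CPM without in Nutlin3a, a ratio of 0.03. MXD4 likewise had opposite signs, at 0.60 in DMSO and −0.15 in Nutlin3a. DMSO replicate 2 without peptide, the highest library for MYC and the lowest for MXD4, enters both the peptide ratio in DMSO and the Nutlin3a ratio of replicate 2.

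Around the network, genes that MYC is known to activate lay mostly on the negative side in Nutlin3a against DMSO without peptide, and so did colon epithelial markers. Of 35 tested, 0 passed in either direction, 32 were negative and the median log2 fold change was −0.25, where 54.1% of all tested windows were positive and their median was 0.04. Among these targets the windows of HSPD1 and HSPE1 overlap, as do those of PPAT and PAICS, so the 35 are not all separate measurements. Of the colon epithelial markers, 6 of 8 were negative (median −0.22). Lists made up mostly of windows with little signal lay on the other side. In these, 7 of 10 silent tissue windows (median 0.50), 6 of 6 mesenchyme markers (0.89) and 6 of 7 blood markers (0.46) were positive. Exceptions in signal were the mesenchyme marker ACTA2 (12.9 to 63.5 CPM, window shared in part with FAS) and the silent tissue gene TNNT2 (33.6 to 55.9 CPM). The part of this general difference between lists in the value for MYC targets was not tested. Within pairs, the targets were negative at 30 of 35 in replicate 1 (median −0.40), 25 of 35 in replicate 2 (−0.10) and 19 of 35 with peptide (−0.01). In the interaction of Nutlin3a with peptide 30 of 35 were positive (median 0.22) and 0 were called, beside 49.1% of all windows positive (median −0.01). Colon epithelial markers were positive at 8 of 8 (median 0.43), whereas 7 of 10 silent tissue windows (−0.49), 6 of 6 mesenchyme markers (−1.18) and 4 of 7 blood markers (−0.59) were negative. The interaction subtracts the change without peptide, so these signs are not separate from those given above for that change. For Nutlin3a over DMSO, the negative count of targets was 29 of 35 without Nutlin3a replicate 1 and 27 of 35 over both peptide states (median −0.12). Among windows with a mean count of at least 50 it was 23 of 33 (median −0.12). With the authors' constants it was 3 of 35 and a median of 0.23, still below the median of all windows there, 0.53. The lowest p belonged to MRTO4, a ribosome assembly factor (−0.67 ± 0.23, but 0.28 in the pair with peptide, window shared in part with EMC1), and PPAT, of purine synthesis (−0.51 ± 0.22, window shared in part with PAICS). On the positive side were the cyclin gene CCND2 (1.36 ± 0.90, at 0.964 to 10.8 CPM) and WDR74 (0.82 ± 0.60). WDR74 had 356 CPM in Nutlin3a replicate 1 and 191 CPM in DMSO replicate 1, against 37.5 to 57.6 CPM in the other libraries. The Nutlin3a change of WDR74 was 2.35 without DMSO replicate 1 and 1.63 without Nutlin3a replicate 2. For peptide against no peptide WDR74 was at −1.86 (log2), where both peptide libraries were replicate 2. Its values thus split by replicate number, and a drug or peptide effect cannot be read from them. Against input, 29 of the 35 target windows were called higher and 1 lower, beside 25.1% and 15.5% of all windows. Among windows averaging 50 counts or more, 11 of 30 targets were higher and 1 lower, where 904 of all 6453 such windows were higher and 657 lower.

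The corepressors and cofactors of the network, such as the SIN3 and polycomb proteins, had 0 of 21 called, 17 negative and a median of −0.17. SAP18 (0.30 ± 0.22) was on the positive side and CBX3 (−0.30 ± 0.22, window shared in part with HNRNPA2B1) and TRRAP (−0.29 ± 0.23) on the negative side. Genes that control MYC turnover had 0 of 14 called, 10 negative and a median of −0.17. Over both peptide states 9 of the 14 were negative and the median was −0.02. FBXW7, the ligase subunit that marks MYC for decay, was at −0.46 ± 0.24 and AURKA, which can shield MYC from it, at −0.45 ± 0.27, each with a window shared in part with another gene, as was that of SKP2. SKP2 and BTRC, ligase subunits too, were each at 0.11 ± 0.27. All of the 21 and 13 of the 14 were positive with the authors' constants, with medians of 0.31 and 0.29. Under that scaling 94.9% of all tested windows were positive, and both medians lay below theirs, 0.53. In windows averaging 50 counts or more, 9 of 18 corepressors and 7 of 13 turnover genes were negative, and without Nutlin3a replicate 1 the counts were 13 of 21 and 7 of 14. Of the remaining relatives, MLXIP, a partner of MLX, was at −0.27 ± 0.25 and above input by 1.498 (log2, adjusted p = 1.43e-05 by edgeR), MLXIPL at −0.27 ± 0.25 and MYCN, at 3.86 to 9.60 CPM, at 0.66 ± 0.75. The MLX target genes TXNIP (0.46 ± 0.72) and ARRDC4 (0.33 ± 0.40) were not called, and the pairs differed in sign. TXNIP was at 1.16 in replicate 1 and −0.40 in replicate 2, and ARRDC4 at −0.24 and 0.71.

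**Figure D5:**
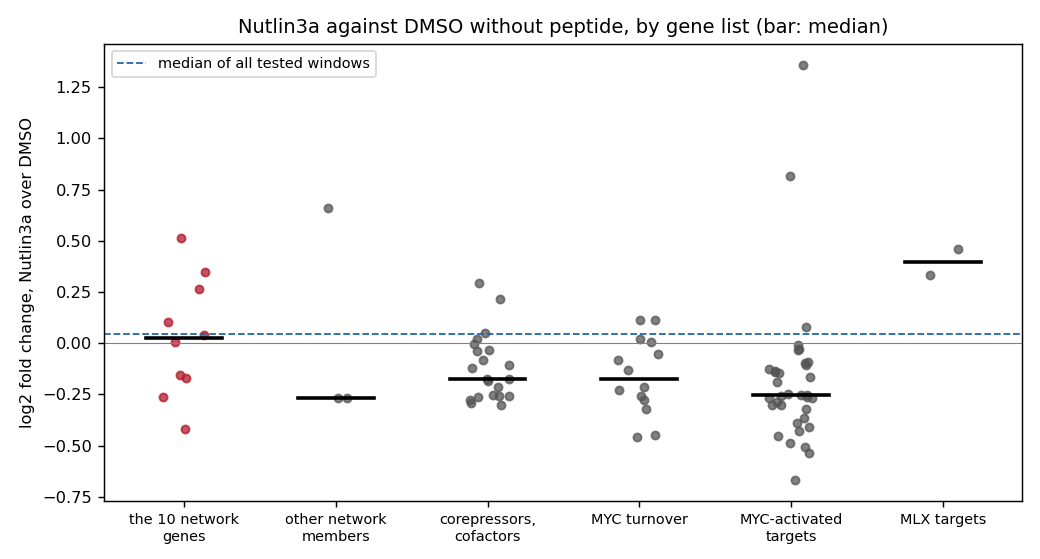
The log2 fold change of Nutlin3a over DMSO without peptide for each gene, by list, with bars at the list medians and a dashed line at the median of all tested windows (0.04). The network genes centre on 0.03 and the MYC-activated targets on −0.25.

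The windows most like MYC over the 6 ChIP libraries, by Pearson correlation of log2 CPM among 11460 windows with a mean count of at least 50, were FBXL19-AS1 (0.986), PIP5KL1 (0.979), DPYSL2 (0.974), ELOVL1 (0.973) and RALGDS (0.968). Each of these 5 windows was, like MYC, highest in DMSO replicate 2, with 43.3 CPM at FBXL19-AS1, 131 CPM at PIP5KL1, 56.2 CPM at DPYSL2, 218 CPM at ELOVL1 and 84.5 CPM at RALGDS. The 5 were picked from 11460 windows for their correlation with MYC over these same libraries, so a shared highest library follows from the choice. The values share libraries and depth, and the likeness rests on 6 points. In the noncoding gene PVT1, a neighbour of MYC on chromosome 8, signal was 82.6 and 107 CPM with Nutlin3a, against 94.0 and 87.6 CPM with DMSO (0.07 ± 0.22).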

How the data were processed

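Per the file headers, the authors deposited raw read counts of 14 libraries, 1 window for each gene, on hg38 (build from the submitters' processing notes). Alignment, counting, read filters and use of strand are not given in the sources used here. The deposited scaled signal of each ChIP library was its counts times 1 constant (1.82 for Nutlin3a replicate 1, 0.595 to 0.748 for the others) and served only as an alternative scaling. Groups and replicate numbers came from the sample titles.

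Main tests used edgeR 4.0.16 under R 4.3.3 (glmQLFit and glmQLFTest, TMM factors 0.951 to 1.02, filterByExpr with a minimum count of 10, Benjamini-Hochberg threshold 0.05). The 6 ChIP libraries were fitted with 4 group means over 25901 windows, leaving 2 residual and 14.7 prior degrees of freedom, with a biological variation of 26.0%. The lone peptide libraries were assumed to vary like the pairs. ChIP over input took all 14 libraries and 8 group means. Ratios within a replicate used log2 CPM with a prior count of 2. Alternatives were size factors, total counts, filters, DESeq2 1.42.0, voom of limma 3.58.1, the replicate block, the constants and leaving out each library. The scripts were tested on simulated data that had less spread between libraries than these data and no replicate effect. That run therefore does not show how often true changes would be found here. Coordinates are 1-based, and RefSeq GRCh38.p14 promoters matched 9 members by symbol.

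Every member was named. From each list the text names the pair of genes with the lowest p on either side, as none passed, plus TXNIP, ARRDC4 and MYCN. PVT1 was added after its values were seen. One gene that this rule names is not reported here. Members and lists were chosen with earlier results of these data known. Counting intervals cover counting error only.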

Additional observations from a re-analysis of the deposited data

Results flagged for a closer look

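MAX was marked because its Nutlin3a to DMSO ratio had one sign in both pairs without peptide and the opposite sign with peptide. The log2 ratio was −0.25 with peptide (43.3 CPM with Nutlin3a, 51.5 CPM with DMSO), and without it 0.03 (replicate 1) and 0.19 (replicate 2). In the edgeR test of the difference MAX was at −0.35 (95% interval −1.30 to 0.59, adjusted p = 1.00), and its 97 reads with Nutlin3a and 92 reads with DMSO, both with peptide, gave a scaled ratio of 0.840 with a counting interval of 0.625 to 1.13. The cause was not tested.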

How the results depend on the processing

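No member was called in a comparison of the ChIP libraries under any alternative run. Against input, MYC was called in every one, and MLX in all but the windows averaging 50 counts or more (0.67). The cause was not tested for the changes that follow, and ChIP depth and the 66 to 138 input reads per member limit what could be seen.

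For Nutlin3a without peptide, 2 windows were higher and 0 lower. The higher count became 8 (total counts), 8 (DESeq2), 4 (limma-voom), 10 (over both peptide states), and 0 with windows averaging 50 counts or more, with the authors' constants and with only libraries without peptide. It was 88 lacking DMSO replicate 1, 0 lacking DMSO replicate 2, 17 lacking Nutlin3a replicate 1 and 37 lacking Nutlin3a replicate 2, and 0 to 15 were lower. The replicate block gave 39 higher windows, 5 lower ones for the interaction and 1 higher for peptide, with MYC at −0.41. Deviations of same-numbered libraries correlated at 0.454 across windows, but 2 numbers do not show that they pair, and the block changed no member's call. Leaving out 1 library gave 0 to 34 lower windows for the interaction, and for peptide 14 to 185 lower and 0 to 10 higher. The constants gave 76 lower for peptide, moving the median of all windows from −0.02 to −0.29. Against input, 5407 windows were higher and 3340 lower, against 3600 and 5434 (total counts, median of all windows −0.33), 904 and 657 (averaging 50 counts or more), and 4066 to 5876 and 2266 to 3634 leaving out 1 library.

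Signs turned as follows. With the constants, Nutlin3a changes were 0.11 (MYC), 0.27 (MNT), 0.21 (MLX) and 0.16 (MGA), and peptide changes −0.12 (MYCL), −0.27 (MAX), −0.089 (MXD3), −0.13 (MNT), −0.11 (MLX) and −0.17 (MGA). Over both peptide states, Nutlin3a changes were −0.075 (MAX), −0.00021 (MXD3), −0.0017 (MXI1) and 0.011 (MNT). The block put MLX at −0.084 for peptide. In windows averaging 50 counts or more, MGA was at −0.026 in the interaction, and MXD3 and MNT at −0.55 each against input. Against input, MAX was at −0.021 (size factors), −0.13 (total counts) and −0.018 (DESeq2), MXD1 at −0.045 (total counts) and MGA at 0.048 (no filter).

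Leaving out 1 library crossed 0 for these members. Nutlin3a ranges were −0.055 to 0.29 (MAX), −0.10 to 0.17 (MXD1), −0.12 to 0.13 (MXD3), −0.43 to 0.071 (MNT) and −0.64 to 0.18 (MLX). Interaction ranges were −0.14 to 0.11 (MXD3), −0.58 to 0.017 (MXD4), −0.47 to 0.36 (MLX) and −0.10 to 0.34 (MGA). Peptide ranges were −0.18 to 0.028 (MYC), −0.050 to 0.12 (MAX), −0.15 to 0.089 (MXI1), −0.013 to 0.24 (MNT), −0.076 to 0.34 (MLX) and −0.0071 to 0.20 (MGA). Against input MXI1 ran from −0.67 to 0.12.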

Other observations

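Several noncoding genes around MYC on chromosome 8 were higher in both replicate 1 libraries than in any replicate 2 library. CCAT1, a long noncoding gene named for colon cancer, had 71.9 CPM in Nutlin3a replicate 1 and 1.20 CPM in Nutlin3a replicate 2, against 14.5 and 3.61 CPM in DMSO replicates 1 and 2. With peptide, in replicate 2 libraries, it had 0.446 CPM with Nutlin3a and 1.68 CPM with DMSO, and the 8 inputs held 4 reads in all. Among libraries without peptide, PCAT1 had 5.35 and 1.20 CPM with Nutlin3a, against 7.23 and 0.515 CPM with DMSO, and CASC21 had 23.7 and 4.20 CPM with Nutlin3a, against 5.79 and 3.61 CPM with DMSO. CASC19, CCAT2 and CASC8 shared this order, while CASC11, POU5F1B and PVT1 did not. Of these 9 windows, 6 were highest in Nutlin3a replicate 1, as were 29.8% of all tested windows. The Nutlin3a change of CCAT1 (log2) was 1.97 with all libraries, where it was not called. It was 3.29 without DMSO replicate 1 and 2.98 without Nutlin3a replicate 2. For peptide against no peptide CCAT1 was at −4.26, and both peptide libraries were replicate 2. At MYC itself Nutlin3a replicate 1 had the lowest level of the 6, 379 CPM. The cause was not tested.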
